A study of Homo sapiens with 6 samples.

Results

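Collagen genes were examined as a family, chosen as every protein coding gene of GENCODE version 44 (lifted to GRCh37) whose symbol has the form COL, a number, A and a number. The rule gave 44 collagen genes of 20163 protein coding genes. Regions of native ChIP-Seq (nChIP-Seq) enrichment were scored within 1 kb of the transcription start site (TSS) of each protein coding transcript, and in the gene body, which runs from the 5′ to the 3′ end of the gene. The rule uses the gene symbol and no measured value.

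All libraries came from U2OS cells, a human osteosarcoma line, grown past confluence, whose chromatin was cut by micrococcal nuclease, mostly to mononucleosomes and dinucleosomes, and precipitated with an antibody in the absence of a crosslinker. The ProMMP2-3xHA cells were a stable U2OS line in which a lentiviral vector supplied the HA-tagged pro-form of MMP-2, a protease, beside the MMP-2 of the cells themselves, and the wild type (WT) cells carried no tag. There were 3 HA replicates of the ProMMP2-3xHA cells, 1 H3K4me3 library of the same cells, 1 HA library of WT cells and 1 H3K4me3 library of WT cells. By the list names, an HA control immunoprecipitation was the background of the HA replicates, and no separate list of the WT HA library was used here.

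Collagens are extracellular proteins in which chains of repeated glycine triplets wind into a triple helix. Bone matrix is built mainly on type I collagen, a fibrillar collagen made of COL1A1 and COL1A2 chains, while type IV collagen forms the sheets of basement membranes. MMP-2, also known as gelatinase A, cleaves denatured collagen and type IV collagen outside the cell. The HA antibody recovered tagged MMP-2 bound to chromatin, and H3K4me3, trimethylated lysine 4 of histone H3, marks the promoters of active genes.

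The cell type was checked by H3K4me3 in the ProMMP2-3xHA cells. All 5 mesenchymal markers (VIM, FN1, THY1, S100A6, TAGLN2) had H3K4me3 at a TSS, as did the osteoblast lineage markers RUNX2, SP7, MSX2 and SPARC. The later osteoblast genes ALPL, BGLAP, IBSP and SPP1 lacked it, together with DLX5 and TWIST1. H3K4me3 was at 3 of 8 epithelial, 1 of 7 haematopoietic, 1 of 5 matched endothelial and 2 of 5 neuronal markers, and the share over all protein coding genes was 62.8%. In WT cells the counts of these 4 lists were 3, 1, 1 and 5, so that all 5 neuronal markers had the mark there, against 66.4% of all genes. The lists hold no read counts. From the fold enrichment and the p-value of each summit the mean coverage of the HA libraries was recovered as 4.23 to 4.74 fragments per base, with a median of 41 to 49 fragments at a summit. For H3K4me3 the depth is unknown. The list of HA replicate 2 stood apart, with no peak narrower than 281 bp and a median width of 544 bp, while replicates 1 and 3 held narrower peaks, with medians of 253 and 308 bp. Whether its peaks were called with other settings was not tested.

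To determine which collagen genes carried MMP-2 at their start sites, the merged HA list, for which the authors pooled the replicates, was read first. A merged HA peak lay within 1 kb of a TSS in 10 of 44 collagen genes, 22.7%, against 31.7% of all protein coding genes. These were COL1A1 and COL5A1 of the fibrillar class, COL6A1 and COL6A2 of the beaded filaments, COL7A1 of the anchoring fibrils, COL8A1 of the hexagonal networks, and COL9A2, COL9A3, COL12A1 and COL20A1 of the fibril-associated collagens (FACIT). None of the 6 type IV genes, 4 transmembrane genes (COL13A1, COL17A1, COL23A1, COL25A1), 2 multiplexins (COL15A1, COL18A1) and 2 genes of types XXVI and XXVIII had a merged HA peak at a TSS.

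**Figure D1:**
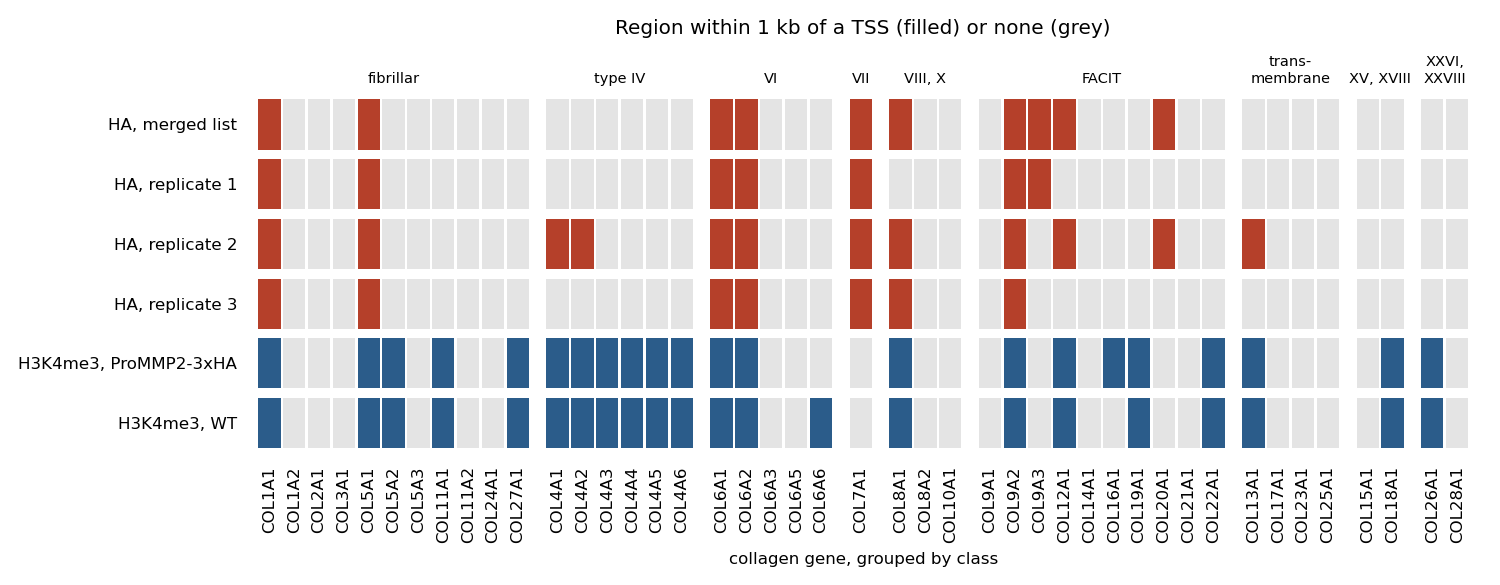
Presence (filled) or absence (grey) of a region within 1 kb of a TSS for each of the 44 collagen genes (columns, grouped by class) in 6 lists (rows): the merged HA list, the 3 HA replicates, and H3K4me3 in ProMMP2-3xHA and WT cells. The 6 type IV genes are filled in both H3K4me3 rows and empty in the merged HA row, and COL7A1 is filled in each HA row and empty in both H3K4me3 rows.

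The replicates, each called on its own, gave 7, 12 and 7 collagen genes with an HA peak at a TSS in replicates 1, 2 and 3. The shares of all protein coding genes were 23.3%, 31.5% and 32.1%. In every replicate a peak was present at 6 collagen genes, COL1A1, COL5A1, COL6A1, COL6A2, COL7A1 and COL9A2, which is 13.6% of the family against 18.7% of all protein coding genes. COL8A1 had a peak in replicates 2 and 3. COL12A1, COL13A1, COL20A1 and the pair COL4A1 and COL4A2, which share 1 peak, had a TSS peak in replicate 2 alone, and COL9A3 in replicate 1 alone. At least 1 replicate therefore had a peak at 13 collagen genes, 29.5%, against 39.6% of all protein coding genes. Without replicate 2, whose list had the widest peaks, 8 collagen genes had a peak in replicate 1 or 3, 18.2% against 35.0%, and the 6 genes above were those with a peak in both.

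COL1A1, which encodes the alpha 1 chain of type I collagen, had a merged HA region of 426 bp at chr17:48278605-48279030 that covered its TSS, the first exon and the start of intron 1. The highest HA fold enrichment at its TSS over the local background was 4.49, 5.56 and 7.81 in replicates 1, 2 and 3 (mean 5.95 ± 1.69, SD, n = 3). The summits of these peaks lay 54, 300 and 55 bp downstream of the TSS and rested on 36, 44 and 57 fragments. Replicate 3 was the highest of the 3, and replicate 1 had a further peak 754 bp downstream with a fold enrichment of 4.15.

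COL1A2, which encodes the other chain of type I collagen, had neither an HA peak in any list nor H3K4me3 in either cell line. COL3A1, the type III collagen gene, was likewise without any region. Of the remaining fibrillar genes, COL5A1, a type V collagen chain that takes part in starting fibrils, had fold enrichments of 4.91, 4.49 and 5.67 (mean 5.02 ± 0.596, SD, n = 3). Its merged region of 756 bp, chr9:137533188-137533943, spanned the TSS, with summits 153, 123 and 179 bp downstream in replicates 1, 2 and 3 and 381 and 300 bp upstream in replicates 2 and 3.

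Type VI collagen forms beaded microfibrils around cells, and 2 of its 5 genes measured here had HA peaks in every replicate. COL6A1 had fold enrichments of 5.85, 7.53 and 5.53 (mean 6.30 ± 1.08, SD, n = 3), the highest mean of the 6 genes with a value in every replicate. Its merged region, chr21:47401202-47402048, held a pair of summits in each replicate. The upstream summits lay 373, 376 and 383 bp before the TSS and the downstream summits 122, 196 and 199 bp after it, and the upstream positions were the closer to each other. COL6A2, on the same chromosome, had fold enrichments of 4.64, 6.53 and 6.50 (mean 5.89 ± 1.08, SD, n = 3). Its summits lay 137, 139 and 133 bp after the TSS in a merged region of 254 bp at chr21:47518039-47518292. The 3 remaining type VI genes, COL6A3, COL6A5 and COL6A6, had no HA peak in any list.

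COL9A2, a chain of type IX collagen of cartilage, had fold enrichments of 4.16, 6.27 and 5.26 (mean 5.23 ± 1.05, SD, n = 3). Its HA region was wide, 1465 bp at chr1:40780862-40782326, and began inside the gene. Summits lay 696 to 2047 bp downstream of the canonical TSS, in introns 1 and 2, near another annotated start, and COL9A2 was counted through that start in replicate 1. COL8A1, a short-chain collagen of vessel walls and the cornea, had fold enrichments of 4.45 and 4.98 in replicates 2 and 3, with summits 151 and 125 bp downstream of the canonical TSS. It also had weaker summits 637 and 427 bp upstream in replicates 2 and 3, with fold enrichments of 4.03 and 4.11. COL12A1, a FACIT collagen of tendon and ligament, had a fold enrichment of 6.13 in replicate 2 with a summit 94 bp downstream.

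**Figure D2:**
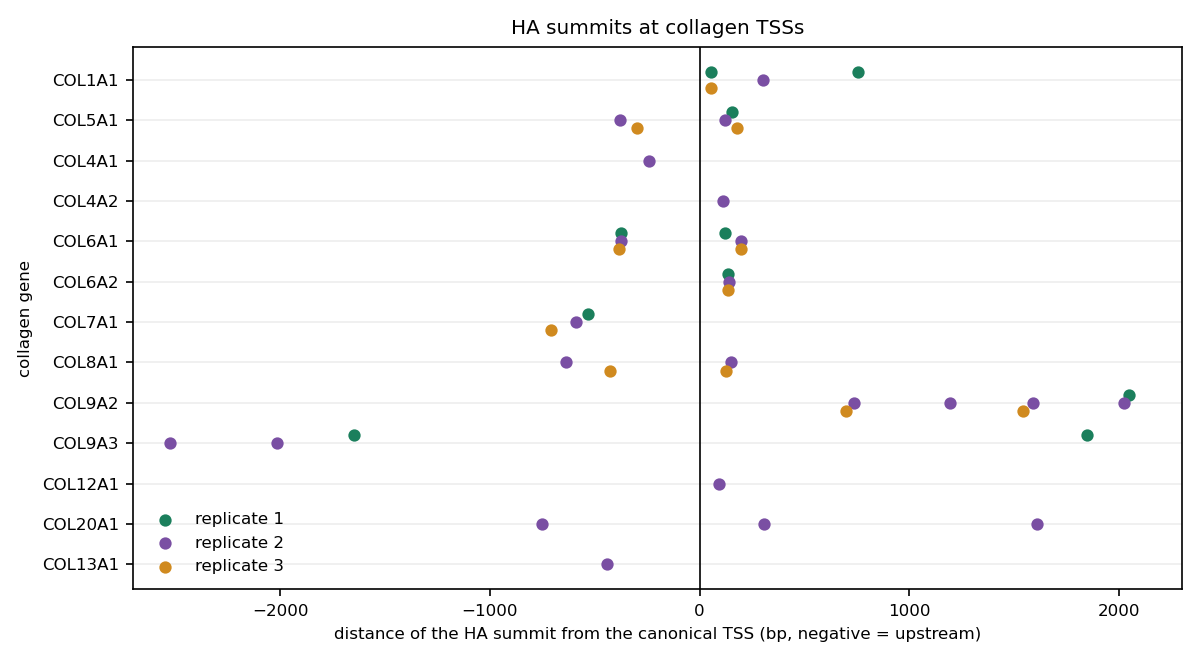
Distance in bp of each HA summit from the TSS of the canonical transcript (x axis, negative upstream) for the 13 collagen genes with a replicate peak within 1 kb of a TSS (y axis), coloured by replicate. COL9A3 also shows the replicate summits inside its merged region. The COL6A2 summits of the 3 replicates fall 133 to 139 bp downstream, and the COL7A1 summits fall 533 to 711 bp upstream.

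Within 500 bp of the canonical TSS, 4 of 5, 8 of 12 and 5 of 8 summits at collagen genes lay downstream in replicates 1, 2 and 3. In replicate 2 the summit shared by COL4A1 and COL4A2 is counted for both genes, 240 bp upstream of COL4A1 and 113 bp downstream of COL4A2. For all protein coding genes, 57.5%, 57.3% and 60.4% of such summits lay downstream, at a median of 131, 140 and 136 bp. The collagen medians downstream were 129.5, 145 and 133 bp, and the medians upstream were -373, -378.5 and -383 bp against -257, -265 and -273 bp for all genes. With 1 to 4 upstream summits per replicate, the collagen values upstream rest on few points, most of them at COL6A1 and COL5A1.

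The sequence at the strongest summit near the TSS differed in CpG content among the genes with a peak in every replicate. The 30 bases around the summit of the highest fold enrichment within 1 kb of a TSS are given on the strand of the gene (GRCh37), with each CpG in capitals. They are from chr17:48278922-48278951, chr9:137533813-137533842, chr21:47401865-47401894, chr21:47518150-47518179, chr3:48633335-48633364 and chr1:40781354-40781383, with COL1A1, COL7A1 and COL9A2 on the minus strand.
COL1A1: CGgagtgtgaggccaCGcatgagCGgaCGc
COL5A1: gCGggccaaagtCGagccctccCGccCGtg
COL6A1: agtggtggcttggggtgcaggctccagacc
COL6A2: cctgggaaggCGgCGgCGgCGgctcCGtcc
COL7A1: gacactgggatgtatgcataagcatgacac
COL9A2: cttcctgcactgtctgaggactgccccacc
COL6A2 held 5 CpGs in these 30 bases, COL1A1 and COL5A1 held 4 each, and COL6A1, COL7A1 and COL9A2 held 0.

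To compare the strength of the peaks, the highest fold enrichment within 1 kb of a TSS was taken for each gene and the median over collagen genes was divided by the median over all protein coding genes with a peak. The collagen median was 4.76, 5.21 and 5.53 in replicates 1, 2 and 3, and the median of all genes was 5.00, 5.68 and 5.03. The ratios were 0.952, 0.918 and 1.10, with a mean of 0.990 ± 0.0971 (SD, n = 3). In replicate 2 the peak that COL4A1 and COL4A2 share, with a fold enrichment of 4.03, was counted for both genes. This lowers the collagen median and the ratio of that replicate, and the ratio with the peak counted once was not computed. A two-sided exact sign permutation test across the 3 replicates gave p = 1.0, where 0.25 is the smallest p possible. The ratio was below 1 in 2 replicates and above it in replicate 3, so the direction was not the same in all replicates, and without replicate 1 or without replicate 2 the mean was above 1. Values of the fold enrichment exist for called peaks alone, which bounds both medians from below.

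**Figure D3:**
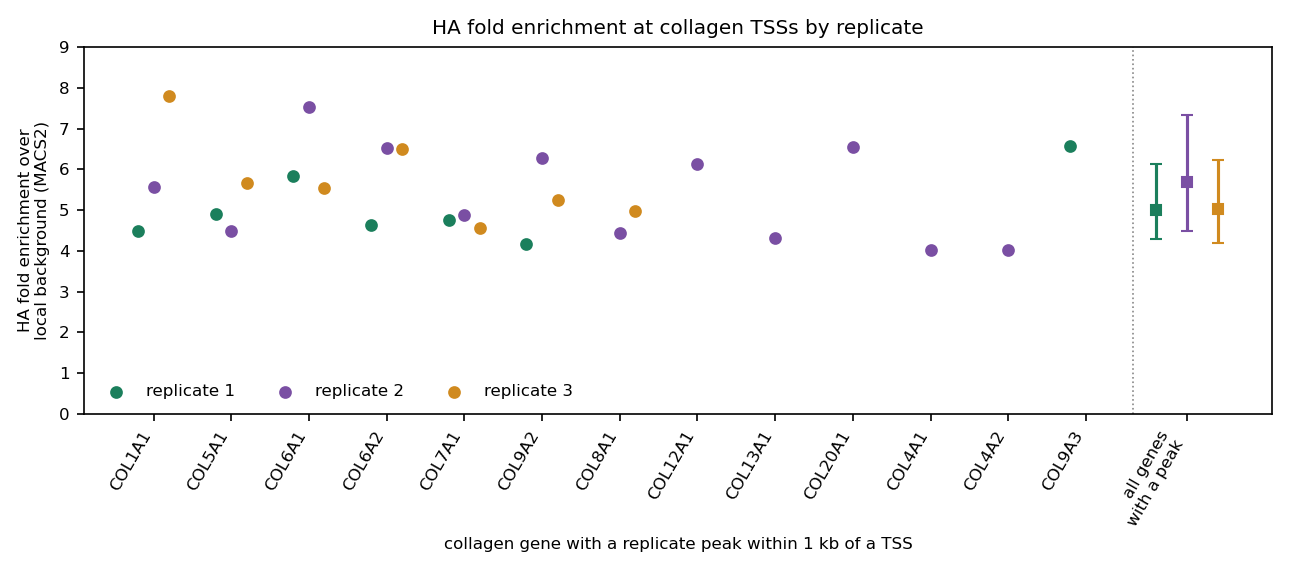
HA fold enrichment over the local background (y axis, MACS2 value on a linear scale) at each collagen gene with a replicate peak within 1 kb of a TSS (x axis), 1 point per replicate. Squares at the right give the median of all protein coding genes with a peak, with bars from the lower to the upper quartile. The collagen points lie between 4.03 and 7.81 and scatter around the medians of 5.00, 5.68 and 5.03.

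To relate the HA peaks to active promoters, H3K4me3 was read at each collagen gene in both cell lines. In ProMMP2-3xHA cells 22 of 44 collagen genes had H3K4me3 at a TSS, against 62.8% of all protein coding genes. In WT cells 22 had it, against 66.4%. The mark was present in both lines at 21 collagen genes, 47.7% against 62.5%. At COL19A1 the region of each line also lay within 1 kb of a TSS of another gene, LMBRD1. By class, it was at 5 of 11 fibrillar genes (COL1A1, COL5A1, COL5A2, COL11A1 and COL27A1), 6 of 6 type IV genes, 2 of 5 type VI genes, 1 of 3 genes of types VIII and X, 5 of 10 FACIT genes, 1 of 4 transmembrane genes, 1 of 2 multiplexins and 1 of 2 genes of types XXVI and XXVIII in ProMMP2-3xHA cells. Without the mark in either line were COL1A2, COL2A1, COL3A1, COL5A3, COL6A3, COL6A5, COL7A1, COL8A2, COL9A1, COL9A3, COL10A1, COL11A2, COL14A1, COL15A1, COL17A1, COL20A1, COL21A1, COL23A1, COL24A1, COL25A1 and COL28A1.

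COL16A1, a FACIT collagen, had H3K4me3 in ProMMP2-3xHA cells but not in WT cells, in a region of 231 bp, and 0.293% of all protein coding genes had that pattern. COL6A6 had the reverse, a region of 468 bp in WT cells, a pattern of 3.94% of all protein coding genes. Among the regions at collagen start sites these were the narrowest of the ProMMP2-3xHA cells and of the WT cells, and each line has 1 library, so no difference between the lines could be tested.

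Among the 22 collagen genes with H3K4me3 in ProMMP2-3xHA cells, 7 also had a merged HA peak at a TSS, 31.8% against 49.9% of all protein coding genes with the mark. As a share of the whole family this was 15.9%, against 31.3% of all protein coding genes. They were COL1A1, COL5A1, COL6A1, COL6A2, COL8A1, COL9A2 and COL12A1. By replicate, 5, 10 and 6 of the 22 had an HA peak. These shares were 22.7%, 45.5% and 27.3%, against 36.7%, 49.2% and 50.7% of all marked genes. A peak in every replicate was present at 5 of the 22, 22.7% against 29.5%. The differences were -13.95, -3.75 and -23.5 percentage points (mean -13.7 ± 9.86, SD, n = 3). The collagen share was lower in 3 of 3 replicates, and the two-sided exact sign permutation test gave p = 0.25, the smallest p that 3 replicates allow, so the design could not reach 0.05. Without replicate 2 the mean difference was -18.7 percentage points. The 22 include type IV genes that share a region in pairs, and both genes of a pair were counted. The differences with each pair counted once were not computed.

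The HA share was also read by the width of the H3K4me3 region. Over all protein coding genes, the share with a merged HA peak was 25.0% where the ProMMP2-3xHA region was under 1000 bp wide, 52.8% from 1000 to under 2000 bp and 71.3% from 2000 bp. Among collagen genes it was 0 of 9, 3 of 5 and 4 of 8. The 9 include COL4A3 and COL4A4, which share a region of 806 bp, and COL4A5 and COL4A6, which share a region of 830 bp. The 8 include COL4A1 and COL4A2, which share a region of 3290 bp. Both genes of a pair were counted here and in the shares below. A limit of 1000 bp was then set after these data were seen, and it leaves out the band in which collagen genes had 0 of 9. The collagen share therefore had to rise. Restricted to regions of at least 1000 bp, 7 of 13 collagen genes, 53.8%, had a merged HA peak against 59.1% of all genes. The replicate differences were then -5.23, 18.8 and -13.6 percentage points, the mean was -0.0211, and the exact sign permutation test gave p = 1.0. Among these wider regions the collagen share was lower in replicates 1 and 3 and higher in replicate 2. The part of region width in the difference was not tested.

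**Figure D4:**
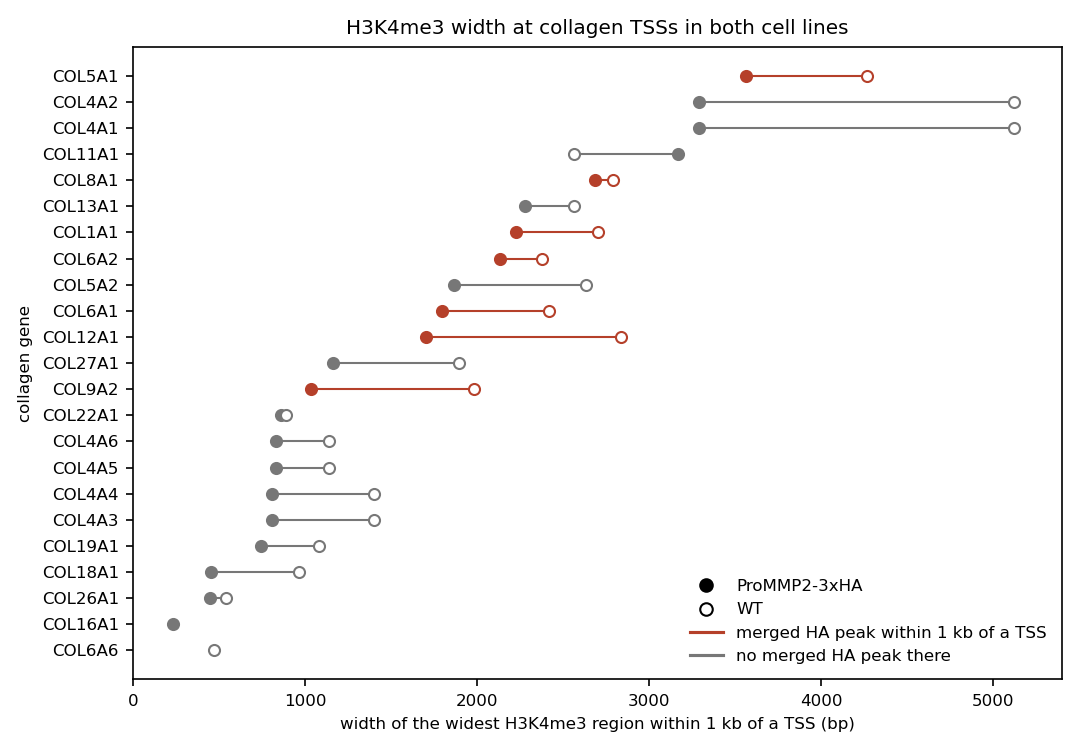
Width in bp (x axis) of the widest H3K4me3 region within 1 kb of a TSS in ProMMP2-3xHA cells (filled circles) and WT cells (open circles) for the 23 collagen genes with the mark in either line (y axis), with red for genes with a merged HA peak at a TSS and grey for the others. The red genes have ProMMP2-3xHA widths from 1035 to 3563 bp, and no gene under 1000 bp is red.

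The median ProMMP2-3xHA width was 1432 bp over collagen genes and 1441 bp over all marked genes, and the WT medians were 2180 and 1835 bp. The 5 collagen genes with the widest ProMMP2-3xHA regions were COL5A1 with 3563 bp, COL4A1 and COL4A2 with 3290 bp in 1 shared region, COL11A1 with 3169 bp and COL8A1 with 2687 bp. COL5A1 and COL8A1 had a merged HA peak, and the others had none. The WT region was wider than the ProMMP2-3xHA region at 20 of 21 collagen genes with both, 95.2%, against 93.0% of all protein coding genes. The exception was COL11A1, a fibrillar collagen of cartilage, whose region was 3169 bp wide in ProMMP2-3xHA cells and 2561 bp in WT cells. At COL12A1 the widths were 1703 and 2835 bp, and at COL9A2 1035 and 1982 bp.

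The type IV genes are arranged as head-to-head pairs that share a promoter, COL4A1 with COL4A2, COL4A3 with COL4A4 and COL4A5 with COL4A6. The canonical start sites were 127, 419 and 1416 bp apart, and each pair shared 1 H3K4me3 region. The regions were 3290, 806 and 830 bp wide in ProMMP2-3xHA cells and 5118, 1402 and 1140 bp wide in WT cells. The COL4A1 and COL4A2 promoter had an HA peak in replicate 2, chr13:110959466-110959838, with a fold enrichment of 4.03 on 26 fragments, below the lower quartile of 4.49 for all genes in that replicate. The other pairs had no HA peak in any list. Members of a pair are not independent observations. With each pair counted once, 19 collagen promoters had H3K4me3 in ProMMP2-3xHA cells and 36.8% of them had a merged HA peak. The same share over all protein coding genes, with shared promoters counted once, was not computed.

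An HA peak without H3K4me3 at a TSS in either cell line was found at COL7A1, COL9A3 and COL20A1, 6.82% of collagen genes against 0.283% of all protein coding genes, or 0.397% where ProMMP2-3xHA cells alone are read. Of genes without the mark in ProMMP2-3xHA cells, 3 of 22 collagen genes, 13.6%, and 1.07% of all genes had a merged HA peak at a TSS. COL7A1, the anchoring fibril collagen of skin, was in the lists of all 3 replicates. Its fold enrichments were 4.76, 4.87 and 4.56 (mean 4.73 ± 0.154, SD, n = 3), the smallest SD among the genes with 3 values, on 36, 32 and 30 fragments. The summits lay 533, 588 and 711 bp upstream of the TSS in a merged region at chr3:48633252-48633585. The nearest H3K4me3 region was 12718 bp from the merged HA region in ProMMP2-3xHA cells and 12568 bp in WT cells.

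COL20A1 and COL9A3, both FACIT genes on chromosome 20, rested on fewer replicates. COL20A1 had 3 peaks near its start sites in replicate 2 with fold enrichments of 3.72, 6.54 and 3.89, and none in replicates 1 and 3. Its merged region of 180 bp, chr20:61924762-61924941, was 19763 bp from the nearest ProMMP2-3xHA H3K4me3 region. At COL9A3 the merged region was 4082 bp wide, chr20:61446244-61450325, and covered the TSS, but no replicate peak did. Replicate 1 had peaks with summits 1650 bp upstream and 1846 bp downstream of the canonical TSS, with fold enrichments of 4.64 and 6.57, and replicate 2 had summits 2014 and 2525 bp upstream, with fold enrichments of 8.36 and 3.01. Replicate 3 had none there.

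In the gene body, over 1 kb from every TSS of the gene, 2 of 44 collagen genes had a merged HA peak, 4.55% against 5.75% of all protein coding genes. The median length was 144.8 kb for collagen genes and 27.2 kb for all protein coding genes. COL13A1, a transmembrane collagen, had a region of 400 bp in intron 2, chr10:71621258-71621657, 59795 bp downstream of the canonical TSS. The fold enrichment was 8.59 on 119 fragments in replicate 1 and 4.82 on 92 fragments in replicate 2, and replicate 3 had no peak. The control background there was 3.0 and 6.0 fragments, against a genome background of 1.33 and 1.55, and the part of that raised background in the peak was not tested. COL6A2 had a region of 2142 bp at its 3′ end, chr21:47550843-47552984, across the last exon, exon 28. Replicate 1 had 5 summits there with fold enrichments from 3.12 to 4.55, replicate 2 had 5 from 3.74 to 7.11, and replicate 3 had no peak. The control background at these summits ran from 1.5 to 4.0 fragments in replicate 1 and from 1.74 to 5.0 in replicate 2. It was thus above the genome background here too, and its part in these peaks was not tested.

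Peaks of single replicates added COL16A1 and COL18A1. In COL16A1, replicates 1 and 2 had overlapping peaks in intron 2 with fold enrichments of 4.28 and 5.15, and replicate 3 had a peak of 4.29 in exon 23, while the merged list had no region. COL18A1 had a peak of 3.73 in intron 2 in replicate 3. H3K4me3 in the body was found at 7 collagen genes in ProMMP2-3xHA cells, 15.9% against 14.5% of all genes, and at 4 in WT cells, 9.09% against 10.3%. At COL2A1, a cartilage collagen gene without H3K4me3 at its TSS, both lines had a region in intron 1, 379 bp wide in ProMMP2-3xHA cells and 1197 bp wide in WT cells. COL5A2 and COL28A1 also had a body region in both lines, COL12A1, COL13A1, COL21A1 and COL24A1 in ProMMP2-3xHA cells alone, and COL19A1 in WT cells alone. None of these body regions of H3K4me3 lay where the body HA peaks were.

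Promoter sequence was described in the window from 250 bases before to 50 bases after the canonical TSS. H3K4me3 and HA peaks were scored at any TSS, so they can lie at another promoter than the one whose sequence was read. In ProMMP2-3xHA cells the H3K4me3 region of COL18A1 was centred 50600 bp downstream of its canonical TSS. That of COL4A6, shared with COL4A5, was centred 1851 bp upstream. The observed over expected CpG ratio had a median of 0.635 in collagen genes and 0.777 in all protein coding genes. Collagen genes with both H3K4me3 and a merged HA peak had a median of 0.763, those with H3K4me3 alone 0.634, those with a merged HA peak alone 0.602 and those with neither 0.567. The same groups of all protein coding genes had medians of 0.880, 0.843, 0.384 and 0.332. At a ratio of at least 0.6, 13 of 24 collagen genes had H3K4me3, 54.2% against 83.9% of all genes, and 7 of 24 had a merged HA peak, 29.2% against 43.6%. From 0.4 to 0.6, 7 of 10 had H3K4me3 against 43.5% of all genes, and 2 of 10 had a merged HA peak against 16.9%. Under 0.4, 2 of 10 had H3K4me3 and 1 of 10 a merged HA peak, against 13.3% and 5.15%.

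**Figure D5:**
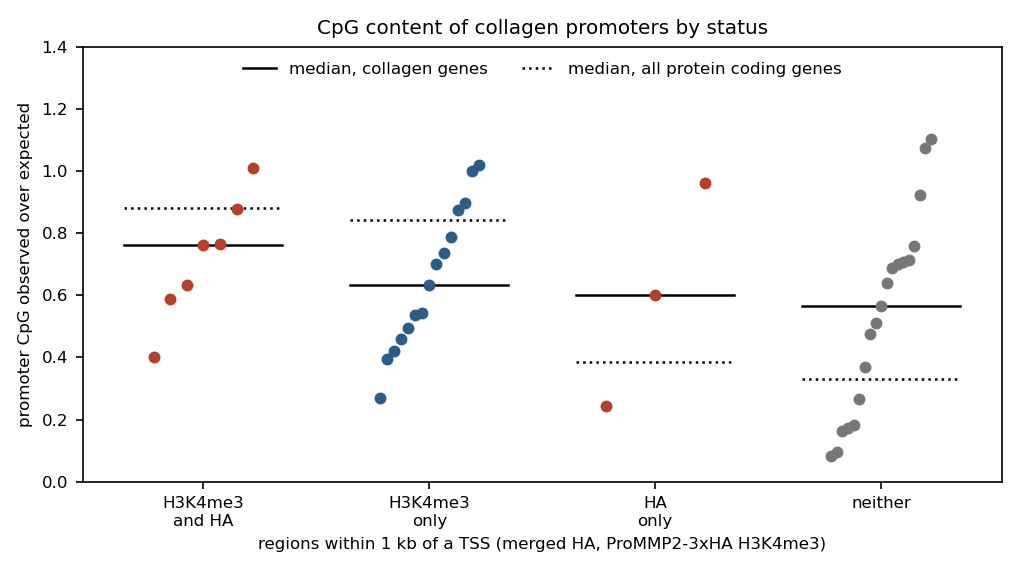
Observed over expected CpG ratio of the promoter (y axis) of each collagen gene, grouped by H3K4me3 (ProMMP2-3xHA) and merged HA peaks within 1 kb of a TSS (x axis), with solid lines at the collagen medians and dotted lines at the medians of all protein coding genes of the same status. The 7 genes with both range from 0.401 to 1.01, and the 19 genes with neither range from 0.0820 to 1.10.

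A TATAAA motif beginning 40 to 20 bases before the canonical TSS was found in 4 collagen promoters, 9.09% against 3.9% of all promoters of protein coding genes. These 30 bases, from 40 to 11 bases before the TSS, are shown on the strand of the gene (GRCh37) with the motif in capitals, because they place genes with and without HA peaks side by side. They are from chr17:48279003-48279032, chr21:47517986-47518015, chr7:94024167-94024196 and chr6:116447306-116447335, with COL1A1 and COL10A1 on the minus strand.
COL1A1: catcaggacagTATAAAaggggcccgggcc
COL6A2: gggcggggTATAAAgggggcggcgccggcc
COL1A2: tttgccgTATAAAtagggcagatccgggct
COL10A1: gaaaaacagTATAAAtaccactgaacagct
COL1A1 and COL6A2 had H3K4me3 and an HA peak in every replicate, and COL1A2 and COL10A1, a collagen of hypertrophic cartilage, had neither. Their CpG ratios were 0.401, 0.767, 0.475 and 0.164. The motif GGGCGG, searched on both strands, was in 28 of 44 collagen promoters, 63.6% against 61.5% of all promoters, and in 7 of 7 collagen genes with H3K4me3 and HA against 76.7% of all genes of that status. The motif CCAAT, on both strands, was in 14 of 44, 31.8% against 36.0%, and in 1 of these 7 against 37.5%.

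Other genes of collagen biosynthesis were read from a list of 54 genes by role. In ProMMP2-3xHA cells 47 of the 54, 87.0% against 62.8% of all protein coding genes, had H3K4me3 at a TSS, 50 had it in WT cells, 92.6% against 66.4%, and 27 of the 54 had a merged HA peak at a TSS against 31.7% of all protein coding genes. Among the 47 marked genes the HA share was 57.4%, beside 31.8% for marked collagen genes and 49.9% for all marked genes. A peak in every replicate was present at 19 of 54, 35.2% against 18.7% of all protein coding genes. The median ProMMP2-3xHA H3K4me3 width was 1710 bp in this list and 1432 bp in collagen genes, and the median CpG ratio was 0.817 and 0.635.

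By role, a merged HA peak was at 12 of 19 genes of modification and folding in the endoplasmic reticulum, 5 of 9 of secretion, 2 of 8 of propeptide removal, 4 of 5 of cross-linking and 4 of 13 cell surface receptors. The share was 31.7% over all protein coding genes and 49.9% over those with ProMMP2-3xHA H3K4me3 at a TSS. Propeptide removal and the receptors were below 31.7%, and each role holds few genes. KLHL12, an adaptor of the ubiquitin ligase that enlarges COPII coats for procollagen export, had the highest mean fold enrichment, 8.77 ± 1.98 (SD, n = 3), with 6.49, 9.73 and 10.1 in the replicates. LOXL3, a lysyl oxidase-like cross-linking enzyme, had 7.12, 8.96 and 4.96. SEC23A, a COPII coat subunit, had 7.17, 8.22 and 4.84, and ITGB1, the beta 1 chain of the collagen-binding integrins, had 5.39, 6.60 and 6.73. PPIB, a prolyl isomerase, had 4.02, 9.06 and 5.13, and P4HB, a subunit of prolyl 4-hydroxylase, had 5.09, 7.04 and 5.07. The means of DDR1, P3H3, ITGA1 and MRC2 ran from 5.27 to 5.46. FKBP10 and P3H4 share a promoter and so have the same values, and both are counted among the 12 of 19.

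Genes of the list without H3K4me3 in ProMMP2-3xHA cells were P4HA3, ADAMTS14 and, among the receptors, ADGRG1, GP6, ITGA10, ITGA11 and LAIR1, and none of these had a merged HA peak. P4HA3, ADGRG1 and ITGA11 had a region of 501, 525 and 350 bp in WT cells. LOX, the lysyl oxidase gene, had H3K4me3 regions of 2185 and 2361 bp and no HA peak in any list. PLOD2, a lysyl hydroxylase, had the widest ProMMP2-3xHA region of the list, 4431 bp, and had HA peaks of 3.20 and 3.44 in replicates 2 and 3 without a merged peak.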

How the data were processed

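Native ChIP-Seq peak lists of U2OS cells were analysed, 3 HA replicates, 1 merged HA list and 1 H3K4me3 list per cell line. Per the labels and the methods of the study, the authors trimmed reads (Trim Galore 0.6.0), aligned pairs to GRCh37 (Bowtie2 2.3.5.1), kept a mapping quality of 30 (SAMtools 1.9), removed duplicates (Picard) and called peaks (MACS2 3.0.0a6) at a q-value of 0.05 and a stated length of at least 147 bp against an input or control immunoprecipitation. The deposited replicate lists hold the authors' score, fold enrichment as a ratio, and −log10 of the p-value and q-value at each summit. The list of replicate 2 has no peak under 281 bp, so other settings may have been used for it. The deposited merged HA and H3K4me3 lists are intervals without values, in which the authors merged narrow and broad calls.

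Overlaps were computed here with Python 3.11.15, numpy 2.4.6, pandas 2.3.3 and scipy 1.17.1. A region within 1 kb of the 5′ end of any protein coding transcript was at a TSS, and lines sharing an interval were 1 peak with its highest fold enrichment. Values with 3 replicates were put to a two-sided exact sign permutation test. The methods describe the HA replicates as independent biological experiments. Fragments per summit were recovered from fold enrichment and p-value by a method checked on simulated data. Alternatives varied the TSS definition, window, list, threshold, width and replicates. Members and gene lists were chosen with earlier results of these data known. Named were collagen genes with an HA peak in any list, with H3K4me3 in 1 line, the 5 widest and the type IV pairs, and 10 pathway genes by mean fold enrichment, with those lacking H3K4me3. COL1A2, COL2A1, COL3A1, COL10A1, LOX, PLOD2, FKBP10 and P3H4 were named after their values were seen. PECAM1 was not matched and the WT HA library was not used here. Some cell type markers are not reported here.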

Additional observations from a re-analysis of the deposited data

How the results depend on the processing

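Of 86 alternatives over 11 results, 78 kept the direction or stayed within 1.5 times the value (for the HA share of marked genes, within its 95% Clopper-Pearson interval). That interval, 13.9 to 54.9%, treats genes as independent, so a share of 53.8% against 31.8% counted as kept. A mean difference of -0.0211 percentage points against -13.7 also counted as kept. The count of 78 therefore says little about the size of the changes. With merged peaks that overlap a peak of every replicate, 6 collagen genes had a merged HA peak at a TSS and 0 had a body peak. Collagen genes with a peak in every replicate fell to 1 when the peak had to overlap the TSS and to 3 at a q-value of 0.001. The shares of all protein coding genes under these settings were not computed. Whether these counts fell more than those of all genes is therefore unknown. The fold enrichment ratio was 1.003 at a q-value of 0.001 and 1.009 with a 2 kb window, and ran from 0.935 to 1.026 when replicates were left out in turn. The mean difference in HA share ran from -18.7 to -8.85 percentage points when replicates were left out and was -0.0211 with H3K4me3 regions of at least 1000 bp, a setting chosen, like counting shared promoters once, after seeing the data. The cause of these changes was not tested.

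No paired analysis was possible because the groups share replicate number 1 alone and the results come from counts over lists. The H3K4me3 lists give 1 library per line and no depth, so absence of a region is absence of a call. Collagen summits rested on as few as 24 fragments, and a collagen gene without a call in a replicate was not shown to lack binding there.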

Other observations

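Among 11 noncoding genes and pseudogenes named after a collagen gene, 2 had a merged HA peak within 1 kb of a TSS. The share over all 44286 genes that are not protein coding was 5.65%. These 2, and no other of the 11, had H3K4me3 at a TSS, in both cell lines. Over all genes that are not protein coding, the mark was at 11.5% in ProMMP2-3xHA cells and 12.9% in WT cells. COL6A2-DT, a divergent transcript beside COL6A2, was in every list, and its HA and H3K4me3 regions were also those of COL6A2. The lncRNA gene annotated as COL6A4P1 had HA peaks in replicates 2 and 3 and in the merged list. Whether its regions were also those of a neighbouring gene was not tested. No region of any list was at a TSS of the antisense genes of COL4A2, COL5A1 and COL18A1.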
